A study of Mus musculus with 20 samples.

Results

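AU-rich elements are short A- and U-rich stretches, usually in 3′ UTRs, that set how long an mRNA lasts and how well it is translated. HuD, the product of Elavl4, is a neuronal protein of the ELAV family that binds such elements and is known to stabilise mRNAs and to raise their translation. The same elements are read by proteins that act in the other direction. The CCCH zinc finger proteins ZFP36 (tristetraprolin), ZFP36L1 and ZFP36L2 recruit the CCR4-NOT deadenylase and promote decay, the KH-domain protein KHSRP hands AU-rich mRNAs to the decay machinery, and TIA1 and TIAL1 (TIAR) repress translation and assemble stress granules.

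The 6 genes for these AU-rich element-binding proteins, Zfp36, Zfp36l1, Zfp36l2, Khsrp, Tia1 and Tial1, were taken by symbol from a fixed list and not by a cutoff on any measured value. The choice was made with earlier results of these data known. All 6 were among the 14924 genes with RNA-Seq and POL-Seq counts, and 5 of the 6, without Zfp36l1, were among the 9621 genes with 3′ end counts. Of the 2868 unique HuD-binding windows listed for CRAC, a crosslinking method that maps where a protein touches RNA, 4 lay on 2 of the 6 genes, Zfp36 and Zfp36l2. Levels, polysome association and HuD binding of these mRNAs were measured here. Protein levels and competition between these proteins and HuD for a shared site were not.

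All samples came from NSC-34, a mouse hybrid line of neuroblastoma and motor neuron-enriched spinal cord cells, carrying the tetracycline repressor (Trex cells), either alone (control) or with a lentiviral, tetracycline-inducible human HuD with a His-HA tag (Trex-HuD). For CRAC, 3 control and 3 HuD libraries were made after both kinds of cell had received, per the labels, 10 μg/ml tetracycline for 24 h, while the results text of the study names doxycycline with another dose and time. For RNA-Seq of total RNA (2 control, 2 HuD), POL-Seq of polysomal RNA (2 control, 2 HuD) and 3′ end sequencing (3 control, 3 HuD), the Trex-HuD cells had 2 μg/ml for 48 h, and the labels do not say whether the control cells were treated. Trex and Trex-HuD cells therefore differ in the transgene and possibly in the inducer, which cannot be told apart in the latter assays.

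The libraries held 21296012 to 36284728 counts for RNA-Seq and POL-Seq, and 12986862 to 15751036 for 3′ ends. Elavl4 was at 78.3 and 97.4 CPM (reads per gene scaled to library size) in total RNA of control cells and at 237 and 212 CPM in that of HuD cells, a log2 difference of 1.35 ± 0.15 (SE, n = 2 per group, edgeR adjusted p = 0.0866). The groups labelled HuD and control thus did not overlap for the induced gene, although the adjusted p missed 0.05. In 3′ end sequencing the HuD libraries had fewer Elavl4 ends than controls (46.1 ± 12.8 against 64.9 ± 22.9 CPM, SD, n = 3, edgeR adjusted p = 0.922, and 0.0306 with the replicate number as a block), and ends at the mouse gene may not report the human transgene, so the label is not checked there. Of the motor neuron markers, Prph (1203 CPM), Tubb3 (599 CPM), Nefh (249 CPM) and Isl1 (40.9 CPM) were present in total RNA of control cells, Chat was near background at 0.524 CPM, and Mnx1 was not in the table. Of 13 markers of glia, muscle and connective tissue, 6 had counts, among them Gfap at 0.574 CPM, Mbp at 5.81 CPM, Pdgfra at 23.5 CPM and the muscle gene Myh3 at 62.0 CPM. In bulk RNA, fewer cells expressing a gene and less RNA per cell cannot be told apart.

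The HuD-binding windows on the 6 genes all lay in 3′ UTRs, 3 on Zfp36l2 and 1 on Zfp36, and none had a read in the control libraries. The authors penalised positions with control reads when calling windows, so that absence is partly built into the listing. The windows are shown because they are the only listed contacts of HuD with any of these mRNAs. Each is given 5′ to 3′ on the transcript strand of the GENCODE vM21 reference (GRCm38), with 11 nt on each side in lower case and the window matched by HuD's weight matrix in capitals.
Zfp36l2, 896 nt after the stop codon: augaaagcaauAGAUAUAUauucuuuuauu
Zfp36l2, 963 nt after the stop codon: guggaguguguUCUUUUCacaguaauaua
Zfp36l2, 1736 nt after the stop codon: gaguuguaauaUAUUUUGgggaaucaguu
Zfp36, 642 nt after the stop codon: gucgucuacucCGUUUUUcuuuuuguaau

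The windows are at chr17:84184850-84184857, chr17:84184784-84184790 and chr17:84184011-84184017 for Zfp36l2 and at chr7:28376910-28376916 for Zfp36, all on the minus strand. Of the 4, 3 hold an uninterrupted run of U, and the first Zfp36l2 window alternates A and U instead. None of the 4 printed sites contains the pentamer AUUUA, the core of the classical AU-rich element.

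The middle window of Zfp36l2 carried most of the crosslinks. It had 71 reads over the HuD libraries, pooled by the authors, and 47 of them had a deletion, the mark that a crosslinked base leaves in CRAC. That is a share of 66.2% (exact 95% interval 54.0 to 77.0%, counting error only), against a median of 9.52% over the 1515 windows on protein coding genes with at least 20 reads. By number of deletions the window ranked 25 among the 2598 windows on protein coding genes, and by deletion share 54 among those 1515. It is the only 1 of the 4 with a combined p-value of the authors under 0.05 (p = 0.00465, not adjusted), as 20.9% of windows on protein coding genes had.

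The other windows had far fewer deletions. The upstream Zfp36l2 window had 38 reads and 4 deletions, a share of 10.5% (exact 95% interval 2.94 to 24.8%). The downstream Zfp36l2 window, 80 nt before the annotated end of the transcript, had 49 reads and 5 deletions, a share of 10.2% (3.40 to 22.2%). Both shares are near the median of all windows of that depth. The Zfp36 window rested on 9 reads, of which 5 had a deletion (55.6%, exact 95% interval 21.2 to 86.3%), so its share is poorly determined.

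Summed over its 3 windows, Zfp36l2 had 158 reads and 56 deletions, rank 181 by reads and rank 46 by deletions among the 1304 protein coding genes with a window. Zfp36, with 9 reads and 5 deletions, ranked 1050 and 790. A protein coding target had a median of 1 window, and 250 had 3 or more. Because the replicates were pooled before deposit, these values have no replicate error and were not tested.

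**Figure D1:**
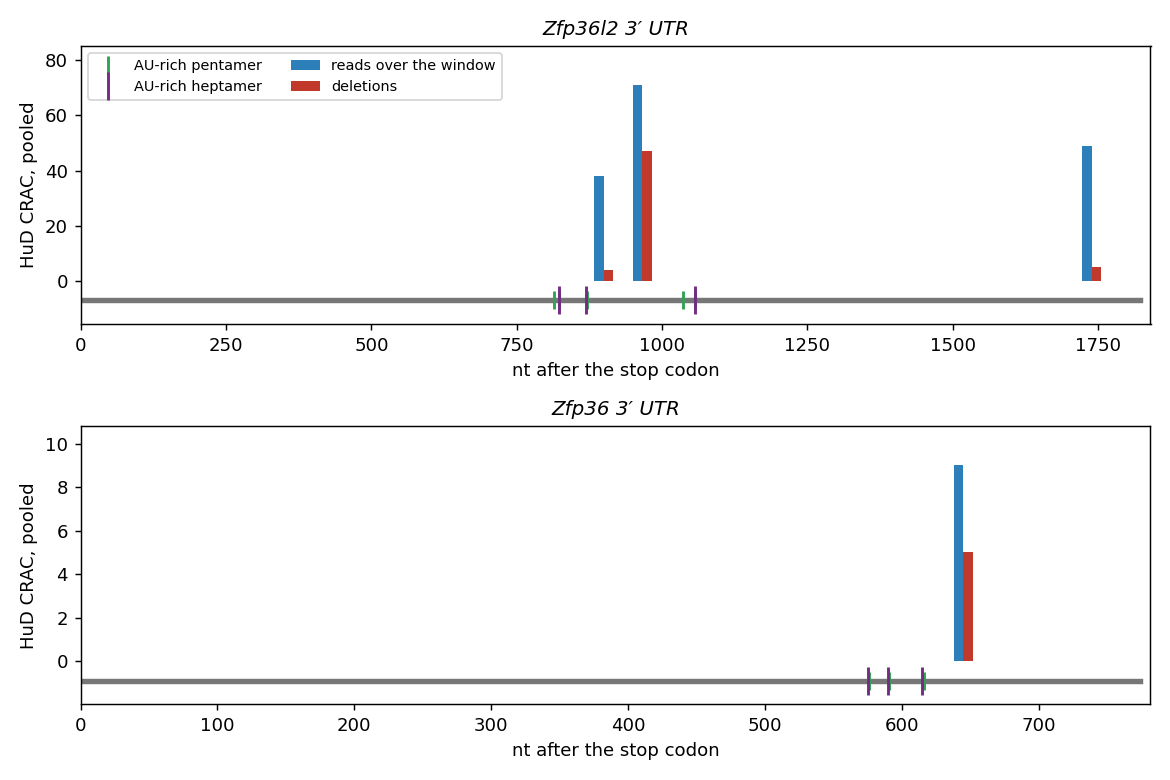
HuD CRAC windows along the 3′ UTRs of Zfp36l2 (1822 nt, top) and Zfp36 (774 nt, bottom). Bars give the pooled HuD reads (blue) and deletions (red) of each window against its distance from the stop codon, and ticks on the grey line mark AU-rich pentamers (green) and heptamers (purple); the 47 deletions of the Zfp36l2 window at 963 nt stand well above the other windows, and the Zfp36 window lies just after 3 clustered heptamers.

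The windows were then placed against the pentamer AUUUA and the heptamer UAUUUAU, and none overlapped either. Shorter AU-rich motifs were not searched. The downstream Zfp36l2 window, UAUUUUG, holds AUUU, which the paper counts among canonical AU-rich elements. The heptamer UAUUUAU, the sequence that ZFP36 proteins are known to prefer and which contains the pentamer, occurred 3 times in Zfp36, 3 times in Zfp36l1 and 3 times in Zfp36l2. In Zfp36 the heptamers began 575, 590 and 615 nt after the stop codon and the HuD window began 642 nt after it, 21 nt past the last pentamer. In Zfp36l2 they began at 822, 870 and 1056 nt, so that the windows at 896 and 963 nt lay between the second and the last, 20 and 66 nt from the nearest pentamer. The third window was 674 nt from one. On the transcript strand of annotated 3′ UTRs within 10% of the same length, at least 1 heptamer was present in 19.4% for Zfp36 (744 UTRs), 38.8% for Zfp36l1 (865 UTRs) and 38.3% for Zfp36l2 (877 UTRs), with a median of 0. These matches describe the letters of the UTR and do not show which protein is bound.

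The other 4 genes had no listed window, although their annotated 3′ UTRs held runs of U. That of Khsrp was low in A and U overall (49.4%, against a median of 54.8% over 12117 UTRs). Khsrp had 1 AUUUA, no UAUUUAU and 47 overlapping occurrences of UUUUU in 1642 nt, against a median of 7 for UUUUU in UTRs of like length. Tial1 had 3, 1 and 64 occurrences in 2756 nt, against a median of 14 for UUUUU. Tia1 had 8, 1 and 29 in 3038 nt, against a median of 16, and Zfp36l1 had 9, 3 and 25 in 1835 nt, against a median of 9. An mRNA may end earlier than its annotated UTR. In 3′ end sequencing of control cells, 66.1% and 11.6% of Tial1 counts came from ends 253 and 266 nt after the stop codon. Each of these ends leaves 3 of the 64 UUUUU occurrences. The listed end of Khsrp leaves 47 of its 47, and that of Tia1 leaves 24 of its 29. Zfp36l1 had no listed end. Whether the ends bear on the lack of windows was not tested.

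The reads over a window also depend on how much of an mRNA there is, so the genes were set beside those of like level. Of the 12953 protein coding genes with counts, 9.9% had a window, and 2 of the 6 genes did. Among genes within 1.5-fold of the same mean CPM, a window was listed for 3.18% at the level of Zfp36, 9.91% at that of Zfp36l2 and 10.6% at that of Tia1. The share was 21.4% at the level of Khsrp and 29.0% at that of Tial1, the most abundant of the 6, yet neither had a window. At the level of Zfp36l1 it was 1.64%, so the lack of a window there says little. The table lists only windows that passed the authors' thresholds, and a gene that is not listed is not thereby shown to be unbound.

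The 6 mRNAs differed widely in level. In FPKM, which scales CPM to the length of the exons, in total RNA of control cells Tial1 was at 38.7 ± 2.65 and Khsrp at 37.2 ± 5.35, followed by Zfp36l2 at 15.1 ± 1.35, Zfp36 at 5.04 ± 0.742, Tia1 at 3.55 ± 0.0547 and Zfp36l1 at 0.326 ± 0.0281 (SD, n = 2). On this scale Tial1 and Khsrp did not differ beyond their spread. Among 12929 protein coding genes, Tial1 was at percentile 88.0, Khsrp at 87.5, Zfp36l2 at 69.8, Zfp36 at 42.3, Tia1 at 34.6 and Zfp36l1 at 8.26. The order depends on the length used. With the longest transcript Tial1 was at 60.0 FPKM and Khsrp at 40.4, which is beyond their spread. Tia1 moved most, since its annotated exons join to 15750 nt while its longest transcript has 4477 nt. Tia1 was then at 12.5 FPKM and Zfp36 at 6.27, and their order turned.

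Within the ZFP36 family the order was Zfp36l2, Zfp36 and Zfp36l1 with either length. Zfp36l1 had only 11 to 43 reads in each of the 8 libraries, so its differences are loosely determined throughout.

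**Figure D2:**
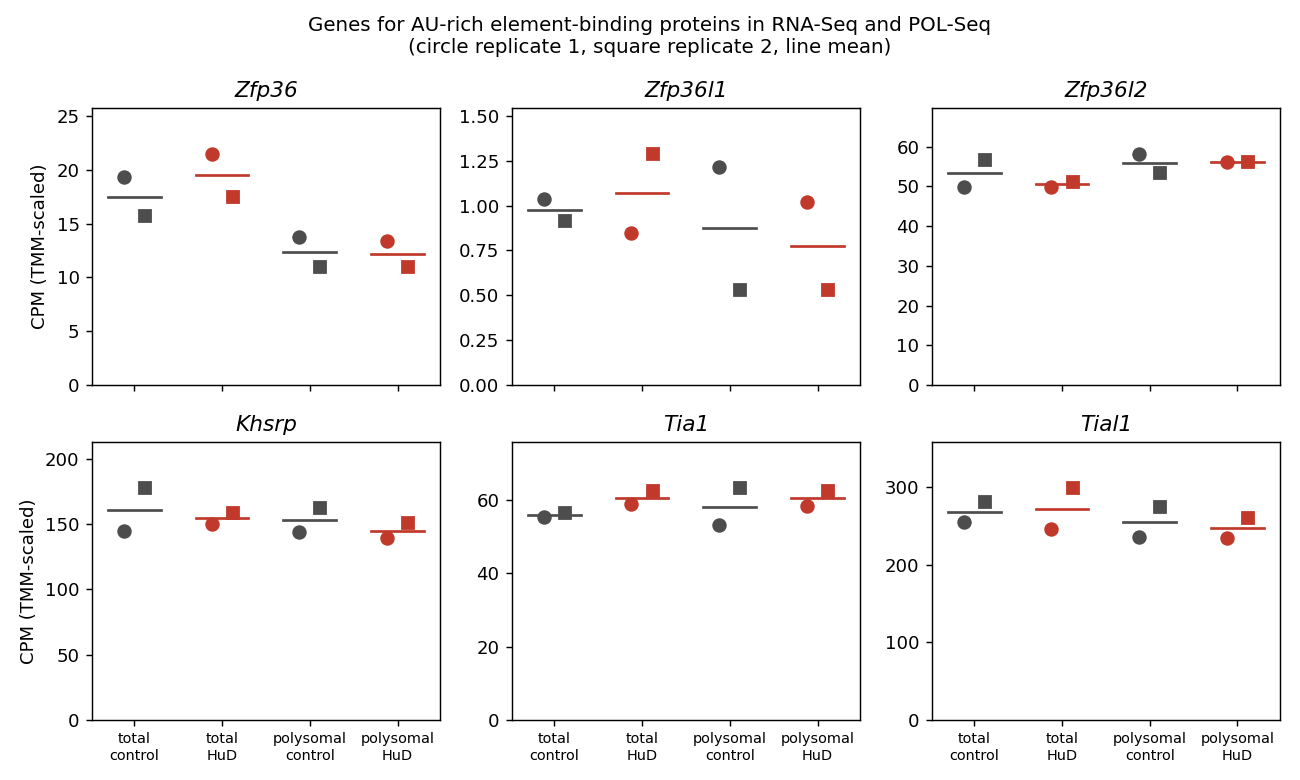
Levels of the 6 genes in TMM-scaled CPM (vertical axes from 0, a scale for each gene) in the 8 RNA-Seq and POL-Seq libraries. Points are libraries and lines are means of 2; Zfp36 is lower in all polysomal than in all total RNA libraries, while for the other genes control (grey) and HuD (red) libraries lie close together, apart from the wide scatter of Zfp36l1.

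HuD overexpression was compared with control in total RNA first, to see whether the mRNAs of these proteins changed in amount. No member passed an adjusted p of 0.05, and none of the 14906 genes tested did (0% called, edgeR). At an unadjusted p under 0.05 there were 0 of the 6, against 2.64% of all genes, and DESeq2 called 0 of the 6 and 1 gene in all (0.00671%). The median log2 difference was 0.07 over the 6 genes and 0.00 over all genes.

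Among the decay factors, Zfp36 was at 19.3 and 15.7 CPM in the control libraries and at 21.5 and 17.5 CPM in the HuD libraries, and the groups overlapped. Its log2 difference was 0.16 ± 0.17 (SE, 95% interval -0.22 to 0.53, adjusted p = 1.00). Zfp36l2, which had the most HuD reads of the 6, was at 49.9 and 56.7 CPM in controls and at 49.8 and 51.1 CPM with HuD. The lowest library of each group was thus at nearly the same level, with a log2 difference of -0.08 ± 0.09 (95% interval -0.28 to 0.12, adjusted p = 1.00). Khsrp was at 145 and 177 CPM in controls and at 150 and 158 CPM with HuD, both HuD libraries lying between the controls.

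Zfp36l1 was at 1.03 and 0.915 CPM in controls and at 0.850 and 1.29 CPM with HuD, which is 25 to 43 reads. Its interval was correspondingly wide, from -0.79 to 1.08 on the log2 scale.

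Of the translational repressors, Tia1 was the only member whose groups did not overlap, as those of 31.9% of all genes did not. It was at 55.4 and 56.6 CPM in controls and at 58.8 and 62.3 CPM with HuD, a log2 difference of 0.11 ± 0.10 (95% interval -0.10 to 0.33, adjusted p = 1.00). Both HuD libraries were above both controls by a small margin. Its relative Tial1 was at 254 and 280 CPM in controls and at 246 and 298 CPM with HuD, the controls lying between the HuD libraries.

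In polysomal RNA the question is whether HuD changed the amount of each mRNA on polysomes relative to other genes. The libraries are scaled to each other, so a change shared by most mRNAs would not be seen. The paper reports a rise in global translation with HuD, measured by other means, which these counts would not show. Again no member passed an adjusted p of 0.05 (0% of all genes called by edgeR), 0 of the 6 had an unadjusted p under 0.05 against 4.17% of all genes, and DESeq2 called 0 of the 6 and 3 genes in all (0.0201%). The groups of all 6 overlapped, and those of 28.7% of all genes did not. Without the first polysomal control library 372 genes were called, and without the second 1, with 0 of the 6 in both cases.

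Zfp36 was at 13.8 and 11 CPM in the polysomal control libraries and at 13.4 and 11 CPM with HuD. Zfp36l2 was at 58.2 and 53.3 CPM in controls and at 56.1 and 56.1 CPM with HuD, a log2 difference of 0.01 ± 0.09 (95% interval -0.19 to 0.21, adjusted p = 0.996). For both mRNAs with HuD windows the HuD libraries lay within the control range. Khsrp was at 144 and 162 CPM against 139 and 150 CPM, Tia1 at 53.2 and 63.2 against 58.5 and 62.4 CPM, and Tial1 at 235 and 274 against 235 and 261 CPM, control before HuD.

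The change in translation efficiency, the difference between the HuD effect in polysomal and in total RNA, was tested as an interaction. It too is relative to other genes. No member was called (0% of all genes called by edgeR, 0% by DESeq2) and 0 of the 6 had an unadjusted p under 0.05, against 0.979% of all genes. The log2 differences were -0.18 ± 0.24 for Zfp36, -0.37 ± 0.61 for Zfp36l1, 0.09 ± 0.12 for Zfp36l2, -0.02 ± 0.16 for Khsrp, -0.06 ± 0.14 for Tia1 and -0.07 ± 0.17 for Tial1 (SE). For Zfp36l2, the gene with the most HuD reads, the 95% interval ran from -0.19 to 0.37.

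**Figure D3:**
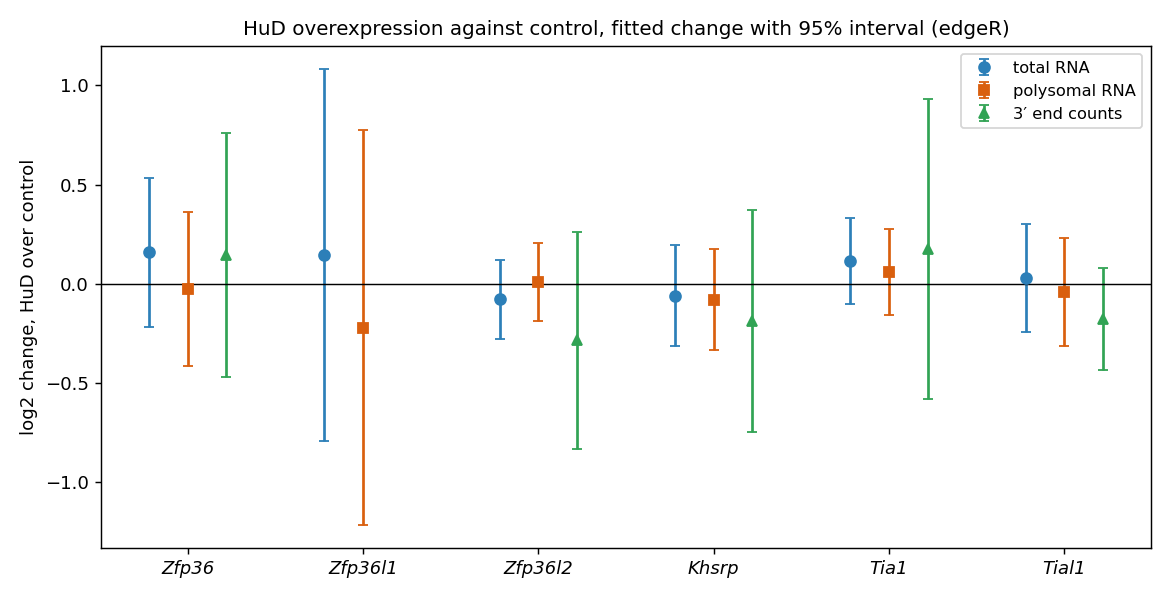
Log2 change, HuD over control, of the 6 genes in total RNA (blue circles), polysomal RNA (orange squares) and 3′ end counts (green triangles, 5 genes), with 95% intervals from edgeR. Every interval includes 0, and those of Zfp36l1, with few reads, are the widest. All intervals come from fits without the replicate block. With the block, the 3′ end change of Zfp36l2 was -0.30 ± 0.09 (SE, edgeR unadjusted p = 0.00459, adjusted p = 0.0905).

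The polysomal share of each mRNA was then compared within the same cells, as the ratio of polysomal to total RNA. The libraries are scaled to each other, so a ratio is relative to the other genes and not the share of molecules on ribosomes. Zfp36 was the only one of the 6 with an unadjusted p under 0.05 in either kind of cell. In control cells its polysomal libraries, at 13.8 and 11 CPM, were below both total RNA libraries, at 19.3 and 15.7 CPM, and the log2 ratio was -0.49 ± 0.17 (SE, 95% interval -0.87 to -0.10), percentile 6.17 of all genes. In HuD cells the polysomal libraries, at 13.4 and 11 CPM, were again below the total RNA libraries, at 21.5 and 17.5 CPM, and the log2 ratio was -0.67 ± 0.17 (95% interval -1.05 to -0.29), percentile 4.41.

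With edgeR over all genes, Zfp36 had an adjusted p of 0.462 in control cells and of 0.155 in HuD cells (unadjusted p = 0.0186 and 0.00302) and so was not called. DESeq2 called it in HuD cells (adjusted p = 0.0251), with 1.54% of all genes, and so did the edgeR fit with the replicate number as a block (adjusted p = 0.00565), with 2.79%. In control cells neither did, with 0.449% and 0.275% of all genes called. Without the first or the second polysomal control library the log2 ratio in HuD cells was -0.67 in both cases. Neither library is part of that comparison, and they enter it only through the shared fit. In control cells the log2 ratio was -0.67 without the first and -0.35 without the second, each from 1 polysomal library. The direction for Zfp36 was the same in every setting tried. The ratios of same-numbered libraries were 0.722 and 0.709 in control cells and 0.633 and 0.638 in HuD cells. The numbers were not taken to pair these libraries, so the closeness of these ratios does not measure their spread.

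In these comparisons 0.174% of all genes were called in control cells and 0.537% in HuD cells (26 and 80 genes), and 10.7% and 12.4% had an unadjusted p under 0.05. Of the 6 genes 1, Zfp36, did in each. The groups of 39% and 49.8% of all genes did not overlap, and neither did those of Zfp36 in both kinds of cell and of Zfp36l2 in HuD cells. Zfp36l2 was higher in polysomes there, at 56.1 and 56.1 CPM against 49.8 and 51.1 CPM, a log2 ratio of 0.15 ± 0.09 (95% interval -0.05 to 0.35, adjusted p = 0.548).

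In control cells Zfp36l2 was at 0.06 ± 0.09, with overlapping groups, and its ratio and that of Zfp36 were not tested against each other. Khsrp (log2 ratio -0.07 ± 0.11 in control cells), Tia1 (0.05 ± 0.10) and Tial1 (-0.07 ± 0.12) were near the median of all genes, 0.01. Zfp36l1 was at -0.08 ± 0.44 in control cells and at -0.45 ± 0.42 in HuD cells (percentile 8.47), with ratios of 1.12 and 0.727 and of 1.13 and 0.577 in same-numbered libraries, too scattered to place.

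**Figure D4:**
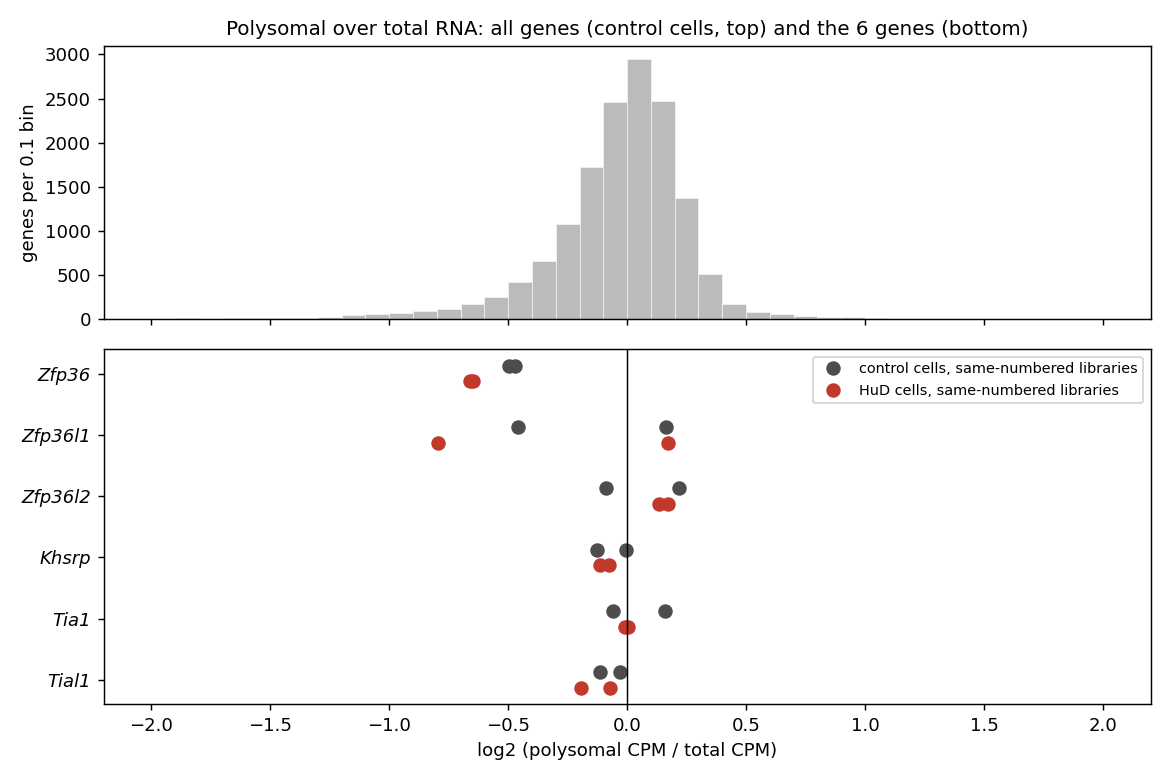
Distribution of the log2 ratio of polysomal to total RNA over all genes tested in control cells (top, genes per bin of 0.1) and, on the same horizontal axis, the ratios of the 6 genes (bottom) for same-numbered libraries of control (grey) and HuD (red) cells. The 4 points of Zfp36 lie between -0.66 and -0.47, in the lower tail of the distribution, and those of Khsrp, Tia1 and Tial1 lie near 0. The numbers were not taken to pair these libraries, so how close the points of a gene lie depends on the matching.

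The 3′ end libraries gave another measure of amount for 5 of the genes. No member was called (0.052% of all genes called by edgeR, 5 of 9621), 0 of the 5 had an unadjusted p under 0.05 against 5.87% of all genes, and DESeq2 called 0 of the 5 and 35 genes in all (0.364%). With the replicate number as a block, 217 genes were called (2.26%) and 0 of the 5, and 1 of the 5, Zfp36l2, had an unadjusted p under 0.05, against 18.7% of all genes. The groups of 12% of all genes did not overlap, and those of 1 of the 5, Tial1, did not.

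Tial1 was at 95.3, 91.7 and 98.4 CPM in controls and at 79.7, 87.4 and 85.5 CPM with HuD. All 3 HuD libraries were below all 3 controls, as was the case for 5.81% of all genes, and the log2 difference was -0.18 ± 0.11 (SE, 95% interval -0.43 to 0.08, adjusted p = 0.938). In total RNA its difference had been 0.03, with overlapping groups. Zfp36l2 was at 75.9, 110 and 70.6 CPM in controls and at 59.8, 95.6 and 55.0 CPM with HuD.

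Every Zfp36l2 HuD library was below the control library of the same number, while the groups overlapped because the second library of each group was high. The log2 difference was -0.29 ± 0.24 (95% interval -0.83 to 0.26, adjusted p = 0.965). With the replicate number as a block it was -0.30 ± 0.09 (SE, edgeR unadjusted p = 0.00459, adjusted p = 0.0905). Zfp36 was at 7.0, 4.72 and 3.43 CPM in controls and at 6.24, 5.28 and 5.25 CPM with HuD, which is 54 to 111 reads. Khsrp (9.52 ± 2.00 against 8.33 ± 2.26 CPM, SD) and Tia1 (8.38 ± 3.38 against 9.51 ± 2.72 CPM) overlapped as well. The end counts of Khsrp were low beside its 161 ± 23.1 CPM in total RNA, and counts cover only ends listed by the authors.

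**Figure D5:**
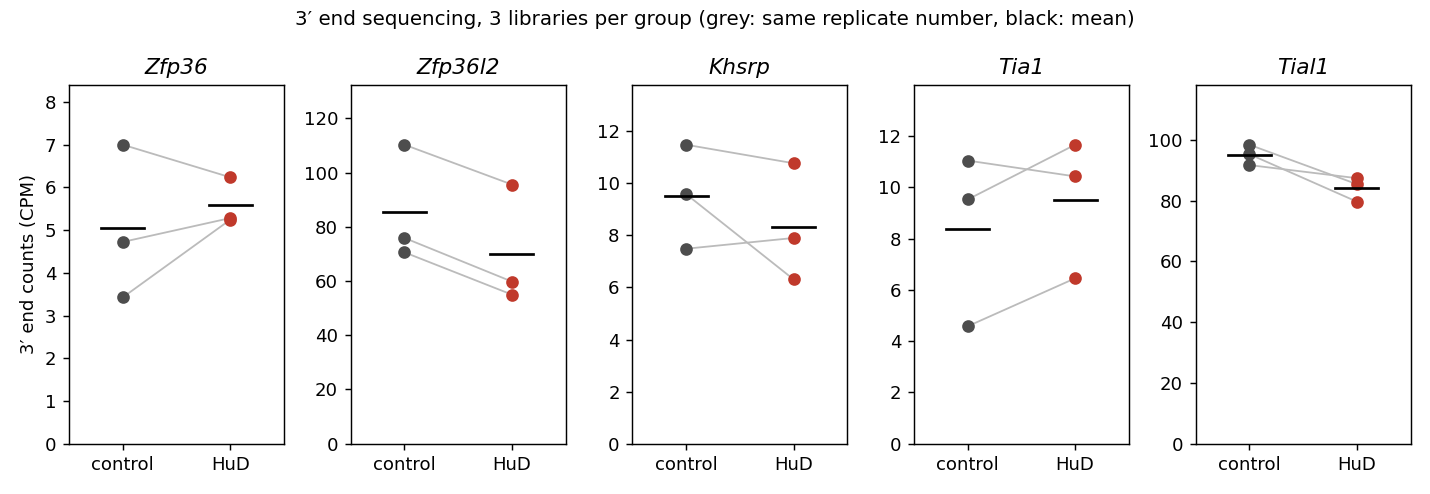
3′ end counts in CPM (vertical axes from 0, a scale for each gene) for the 5 genes with listed ends, in 3 control (grey) and 3 HuD (red) libraries, with means in black and lines joining libraries of the same replicate number. The 3 HuD libraries of Tial1 lie below the 3 controls, and each Zfp36l2 line slopes down while the groups overlap.

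The ends themselves bear on which AU-rich elements an mRNA keeps. Zfp36, Zfp36l2, Khsrp and Tia1 had 1 listed end each, so no choice of site can be seen. Those of Zfp36 and Zfp36l2 were at the end of the annotated UTR, so that all 4 HuD windows lay before the measured ends. The Tia1 end lay 1813 nt after the stop codon, before the annotated UTR of 3038 nt is complete, and leaves 6 of its 8 AUUUA pentamers.

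Tial1 had 3 listed ends. Of its counts in controls, 66.1 ± 2.59% came from the end 253 nt after the stop codon, 11.6 ± 0.787% from an end 266 nt after it and 22.2 ± 2.66% from the far end at 2756 nt (SD, n = 3). With HuD the shares were 67.7 ± 1.67%, 12.8 ± 0.795% and 19.4 ± 1.93%. The far end had 19.2 to 23.9% of the counts in controls and 17.9 to 21.6% with HuD, so the groups overlapped, and the use of the 3 ends was not called different (edgeR adjusted p = 1.00, unadjusted p = 0.839, with 0.0301% of 3317 genes called and 0.151% at an unadjusted p under 0.05). Most counted Tial1 mRNA thus ended after 1 of the 3 AUUUA pentamers and 3 of the 64 UUUUU matches of the full UTR. The hexamer AAUAAA, the main polyadenylation signal, was found within 40 nt before each of the 5 ends that matched an annotated transcript end, as in 66.7% of 12847 ends. These were the 2 outer Tial1 ends and those of Zfp36, Zfp36l2 and Tia1.

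Partners of the 6 genes in the same pathways were examined as lists of genes. Of 18 other AU-rich element-binding proteins with counts, 0 passed an adjusted p of 0.05 in total or polysomal RNA, and the smallest was that of Elavl4 itself. In polysomal RNA, Hnrnpa0 had a log2 difference of 0.33 ± 0.12 (unadjusted p = 0.0199, edgeR adjusted p = 0.969), and in total RNA Rc3h2 (Roquin-2), which binds stem-loop decay elements, had 0.24 ± 0.09 (unadjusted p = 0.0232, adjusted p = 1.00). Hnrnpa0 had the smallest p of that list for translation efficiency too, at 0.43 ± 0.17 (unadjusted p = 0.0291, adjusted p = 1.00). The median over the 18 was -0.07 in total RNA and -0.08 in polysomal RNA. In 3′ end counts 0 of 17 had an unadjusted p under 0.05. With the replicate block 9 of the 17 did, 3 higher and 6 lower, against 18.7% of all genes. Of these 1 was called, Elavl4 (edgeR adjusted p = 0.0306).

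The decay machinery that the ZFP36 proteins and KHSRP recruit, 26 genes for deadenylases, decapping factors and the exosome, had 0 genes with an unadjusted p under 0.05 in total RNA and 0 in polysomal RNA. Its median log2 difference was -0.04 in total RNA and -0.09 in polysomal RNA, with 18 and 20 of the 26 below 0. Over all genes the medians were -0.0039 and -0.0063, and 48.4% were above 0 in polysomal RNA. The smallest p of the list in polysomal RNA was that of the deadenylase Parn, at -0.18 ± 0.09 (unadjusted p = 0.0736, edgeR adjusted p = 0.969). In 3′ end counts it was that of the CCR4-NOT deadenylase subunit Cnot6, at -0.28 ± 0.11 (unadjusted p = 0.0335, adjusted p = 0.833). With the replicate block 4 of 20 had an unadjusted p under 0.05 there, all lower, near the 18.7% of all genes, and 0 were called.

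Of 12 stress granule genes, partners of TIA1 and TIAL1, the poly(A)-binding protein gene Pabpc1 was the only gene of these 5 lists past the adjusted threshold in the edgeR comparisons without a block. It was lower in polysomal than in total RNA, by a log2 ratio of -0.68 ± 0.10 in control cells (edgeR adjusted p = 0.0472) and of -0.93 ± 0.10 in HuD cells (adjusted p = 0.00839). These comparisons called 0.174% and 0.537% of all genes. A fit of only the 4 control-cell libraries called 0 genes, so the call of Pabpc1 in control cells was lost there. The HuD difference of Pabpc1 was 0.00 in total RNA and -0.26 ± 0.10 in polysomal RNA (unadjusted p = 0.0293, adjusted p = 0.969). Of 12 genes of the p38-MK2, AKT, phosphatase and 14-3-3 proteins that act on ZFP36, 0 had an unadjusted p under 0.05 with HuD, and 11 were below 0 in total RNA with a median of -0.07. In polysomal RNA 7 of the 12 were below 0, with a median of -0.04, and for translation efficiency 10 were above 0.

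Known AU-rich mRNAs, classical targets of such decay factors, were on the higher side in polysomal RNA. This list was chosen with earlier results of these data known, so its counts are descriptive and no independent test of a shared direction. Of 22 with counts, 18 had a log2 difference above 0, as 48.4% of all genes had, and the median was 0.14 against -0.01 over all genes. At an unadjusted p under 0.05 there were 6 of the 22, all higher, against 4.17% of all genes, and 0 passed the adjusted threshold. The cytokine gene Il6 was at 0.91 ± 0.21 (unadjusted p = 0.00172, edgeR adjusted p = 0.969) and the cell cycle inhibitor gene Cdkn1a at 0.40 ± 0.10 (unadjusted p = 0.00300, adjusted p = 0.969). In total RNA 3 of the 22 had an unadjusted p under 0.05, all higher, against 2.64% of all genes, with a median of 0.05. Il6 was at 0.69 ± 0.21 there (unadjusted p = 0.00821, adjusted p = 1.00) and the angiogenic factor gene Vegfa at 0.32 ± 0.10 (unadjusted p = 0.0132, adjusted p = 1.00). In 3′ end counts 2 of 18 had one, against 5.87% of all genes, the immediate early gene Egr1 at 0.55 ± 0.13 (unadjusted p = 0.00232, adjusted p = 0.385) and the survival gene Bcl2 at 0.52 ± 0.20 (unadjusted p = 0.0275, adjusted p = 0.805), both higher. With the replicate block Egr1 was called (edgeR adjusted p = 0.0191), and 5 of the 18 had an unadjusted p under 0.05, against 18.7% of all genes. Of these, 3 were higher and 2, Cdkn1a and the kinase gene Pim1, were lower, so the direction was not shared.

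HuD windows were listed for 10 of the 18 other AU-rich element-binding protein genes, 5 of the 12 stress granule genes, 5 of the 12 signalling genes, 5 of the 22 AU-rich mRNAs and 2 of the 26 decay genes, beside 2 of the 6. Over all protein coding genes the share was 9.9%, and that of the decay list, 7.69%, was near it. The most covered of each list were Ybx1 with 2036 reads over 9 windows, Hnrnpc with 294 over 6 and Rc3h2 with 234 over 7, Pabpc1 with 298 in 1, the 14-3-3 zeta gene Ywhaz with 415 over 10, and Cnot6 with 738 over 8. Zfp36l2, with 158 reads over 3 windows, came below these. Of the AU-rich mRNAs, Hif1a had 125 reads over 4 windows, Egr1 had 85 over 3 and Vegfa had 66 in 1. Lists differ in mean level, which the counts of genes with a window do not take into account.

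Over the 8 RNA-Seq and POL-Seq libraries the 6 genes did not follow one pattern. Khsrp and Tial1 were most alike (Pearson r = 0.79 of log2 CPM), and Zfp36 and Zfp36l2 were most opposed (r = -0.69). Among 9702 genes with a mean of at least 10 CPM, those most like Zfp36 were Zc3h10 (r = 0.99) and Ggcx (r = 0.99), those most like Zfp36l2 were Tmem109 (0.93) and Ina (0.93), and those most like Tia1 were Pnisr (0.99) and Pfkp (0.98). For Khsrp they were Smtn (0.97) and Mogs (0.96), for Tial1 Surf2 (0.98) and Polr3c (0.96), and for Zfp36l1, with its few reads, Defb42 (0.92) and Commd6 (0.92). These are descriptions over 8 libraries that share cells, fractions and depth.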

How the data were processed

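Per the labels, RNA-Seq, POL-Seq, 3′ end sequencing and CRAC libraries of NSC-34 cells were analysed as groups of control and HuD-induced cells. The authors aligned the total and polysomal RNA reads with STAR 2.5.3a to GRCm38 and deposited raw counts per Gencode M6 gene. For 3′ ends, the authors deposited counts per annotated end, with 18577 lines reduced here to 14536 unique ends and summed per gene. For CRAC, the authors aligned with TopHat2 2.0.14, pooled the replicates and deposited for each window the read coverage (a signal), a count of deletions, a combined p-value and a score against a positional weight matrix. Lines at the same position were joined to unique windows, and listed positions were moved by 2 nt, which matched the listed sequence for all 1403 plus and 1384 minus strand windows with a single match to GENCODE vM21 transcripts. All per-sample columns were used.

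The tests of counts used edgeR 4.0.16 under R 4.3.3 (TMM, filterByExpr, quasi-likelihood test, Benjamini-Hochberg adjustment at 0.05), RNA-Seq and POL-Seq in a single fit of 8 libraries with group means, and 3′ end usage with diffSpliceDGE and Simes' method. Scripts were tested on simulated data. The alternatives were RLE size factors, no filter, DESeq2 1.42.0, a replicate block, fits without each library and fits of the 4 libraries compared. Adjusted p-values come from edgeR unless another tool is named. FPKM used exon unions of vM21. The study describes the RNA-Seq, POL-Seq and 3′ end libraries as biological replicates, and the labels do not add whether they came from separate cultures. The p-values measure the spread between these libraries. Same-numbered 3′ end libraries deviated together (r = 0.41, 0.68 and 0.53), so a fit with the replicate number as a block is given beside the main 3′ end test. The main test had no block.

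The 6 genes and the gene lists were chosen with earlier results of these data known. Named were the 6 genes and Elavl4, list genes past the adjusted threshold or, where none was, up to 2 of smallest p per comparison, the list genes of most CRAC coverage, and per gene the 2 of most similar profile.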

Additional observations from a re-analysis of the deposited data

How the results depend on the processing

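No member was called in total RNA, polysomal RNA, translation efficiency, 3′ end counts or end usage under any alternative tried, fits without a library included. For polysomal against total RNA in HuD cells, DESeq2 called 1 member and the replicate block called 1, Zfp36 in both cases, and fits without a library called 0 to 1. In control cells they called 0 to 1. In RNA-Seq and POL-Seq the replicate numbers, whose same-numbered libraries correlated at r = 0.24 to 0.49 over only 2 pairs, were not taken to pair the libraries. The block changed no other member's call. It moved the genes called from 26 to 41 in control cells and from 80 to 416 in HuD cells, and DESeq2 called 67 and 229. Fits of the 4 libraries compared called 0 and 353, and 1 gene in total RNA. Fits without a library called 0 to 2145 genes in control cells, 0 to 411 in HuD cells, 0 to 372 with HuD in polysomal RNA and 0 to 47 for translation efficiency, the highest of each without a polysomal control library, and 2 to 14 in 3′ end counts, the highest without the second HuD library. The cause was not tested.

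Of the log2 differences of single members, none turned sign under another setting. Leaving out a library turned the sign of some, mostly values near 0 but also those of Zfp36l1 and the 3′ end values of Tia1 and Zfp36. With HuD in total RNA the ranges were -0.20 to 0.094 for Khsrp, -0.12 to 0.16 for Tial1, -0.19 to 0.40 for Zfp36l1 and -0.17 to 0.015 for Zfp36l2. In polysomal RNA they were -0.17 to 0.013 for Khsrp, -0.063 to 0.19 for Tia1, -0.15 to 0.081 for Tial1, -0.18 to 0.16 for Zfp36, -0.78 to 0.57 for Zfp36l1 and -0.045 to 0.073 for Zfp36l2. For translation efficiency they were -0.17 to 0.12 for Khsrp, -0.18 to 0.074 for Tia1, -0.20 to 0.078 for Tial1, -0.93 to 0.42 for Zfp36l1 and -0.0067 to 0.18 for Zfp36l2. In 3′ end counts they were -0.11 to 0.42 for Tia1 and -0.073 to 0.46 for Zfp36. For polysomal over total RNA in control cells they were -0.21 to 0.082 for Khsrp, -0.082 to 0.17 for Tia1, -0.19 to 0.037 for Tial1, -0.87 to 0.31 for Zfp36l1 and -0.023 to 0.16 for Zfp36l2, and in HuD cells -0.049 to 0.046 for Tia1 and -0.27 to 0.0084 for Tial1. The Zfp36 ratio ran from -0.67 to -0.33 in control and from -0.82 to -0.52 in HuD cells.

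With the longest transcript as length, FPKM moved to 6.27 for Zfp36, 12.5 for Tia1 and 60.0 for Tial1. Of the 4 CRAC windows, 1 had a combined p under 0.05, and with deletions in place of coverage Zfp36l2 moved from rank 181 to rank 46. Merging 3′ ends within 20 nt left no gene called for end usage, and 1 with the block as well, a setting added after the data were seen. With 2 libraries a group and 11 to 43 reads, Zfp36l1 limits what can be said of it.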
